A study of Mus musculus with 16 samples.

Results

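Activin and bone morphogenetic protein (BMP) signaling was followed in KPC1199 cells through 10 genes chosen by symbol in both count tables, out of 55414 annotated genes in the table of untreated cells and 56980 in the table of the interferon gamma (IFNγ) experiment. The genes are the ligand subunits Inhba, Inhbb, Bmp2, Bmp4 and Bmp7, the secreted antagonists Fst and Fstl3, and the target genes Id1, Id2 and Id3. They were picked with earlier results of these libraries known, so their genotype and IFNγ values are given as a description, without tests. In GRCm39, Fst lies at chr13:114588731-114595521 on the minus strand, Inhba at chr13:16186373-16206206 on the plus strand, Bmp2 at chr2:133394079-133404816 on the plus strand and Bmp4 at chr14:46620250-46636745 on the minus strand. Id1 lies at chr2:152566218-152579544 and Id3 at chr4:135870808-135873066, both on the plus strand, and Id2 at chr12:25143798-25147282 on the minus strand.

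KPC1199 is a mouse pancreatic ductal adenocarcinoma line from the KPC model, in which Pdx-cre acts in the pancreas. Every group therefore carries the alleles of that model, and every group also carries the lentiCRISPR v2 vector with Cas9 and a guide after puromycin selection. Untreated cells were measured in 2 sgCtrL libraries, which carry the control guide, and in 2 Sin3Bsg1 libraries, whose guide targets Sin3B. A second experiment, with IFNγ, has 4 groups of 3 libraries, in which sgCtrL and Sin3Bsg1 cells were each grown without IFNγ or exposed to it at 10 ng/ml for 24 h. Sin3Bsg1 is the only Sin3B guide in these libraries, so an effect of Sin3B loss and an effect of this guide or of this selected population cannot be told apart. Nothing in the labels says that the libraries of a group came from separate cultures, and the spread between them may be technical.

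Activins and BMPs are secreted dimers of the TGFβ superfamily. They bind type II and type I receptor kinases, which phosphorylate Smad2 and Smad3 after activin and Smad1, Smad5 and Smad9 after BMPs. Follistatin, the product of Fst, wraps around activin and blocks its receptor contacts, and binds some BMPs less tightly. Id genes are classic direct targets of BMP Smads in epithelial cells, and their products lack a DNA-binding domain and hold E proteins away from DNA. In the pancreas, activin and BMP signals act in endocrine and duct development and in tumors.

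SIN3B is a scaffold of histone deacetylase complexes. The guide is shown because every genotype difference below rests on it. It lies in exon 1 of Sin3b, in the coding sequence, on the plus strand at chr8:73449982-73450001 (GRCm39), and the capitals mark the PAM next to it.
Sin3Bsg1: tggctcccgctggggtcgttCGG
Sin3b itself was at 88.6 and 83.4 CPM (a gene's counts scaled to library size, with TMM factors) in untreated sgCtrL and at 36.5 and 34.1 CPM in untreated Sin3Bsg1. Its log2 fold change was -1.28 ± 0.049 (SE; edgeR adjusted p = 1.24e-11). It was -1.24 ± 0.052 without IFNγ (edgeR adjusted p = 5.10e-10) and -1.22 ± 0.052 with IFNγ (edgeR adjusted p = 5.21e-10). In both experiments every Sin3Bsg1 library lay below every sgCtrL library. Irf1, a transcription factor induced by interferons, rose by 3.51 ± 0.042 on the log2 scale in sgCtrL (edgeR adjusted p = 1.70e-18) and by 3.57 ± 0.042 in Sin3Bsg1 (edgeR adjusted p = 1.31e-18).

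Untreated libraries held between 29683181 and 32311721 counts, and those of the IFNγ experiment between 18128055 and 27056903. A count of 3, the level taken as the floor, was 0.0935 to 0.102 CPM in the first and 0.111 to 0.166 CPM in the second. Epithelial and pancreatic duct markers were above the floor for 9 or 10 of 10 genes and summed to 3216 to 6475 CPM, whereas 7 of 8 leukocyte markers, Ptprc among them, were at the floor. 1 sgCtrL library with IFNγ, replicate 1, stood apart: set against replicates 2 and 3, its counts gave chi-square values that averaged 22.0 and 18.2 over genes, whereas replicates 2 and 3 gave 4.03 and the pairs within other groups 2.40 to 9.22. Log2 fold changes of single genes that moved by 0.05 or more without it are given both ways.

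Fst was the member with the widest range of levels. In the IFNγ experiment its libraries were higher in Sin3Bsg1 than in sgCtrL and higher with IFNγ than without it in both genotypes, and the 4 groups did not overlap, with means from 13.3 ± 0.488 CPM (SD, n = 3) in sgCtrL without IFNγ to 122.6 ± 4.37 CPM in Sin3Bsg1 with it. Inhba, Bmp2, Bmp4 and Fstl3 moved by at most 0.55 on the log2 scale in any comparison within an experiment. Id1, Id2 and Id3 were the members whose level differed most between the control cells of the 2 experiments. The plot of CPM by library shows all 8 members above the floor.

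**Figure D1:**
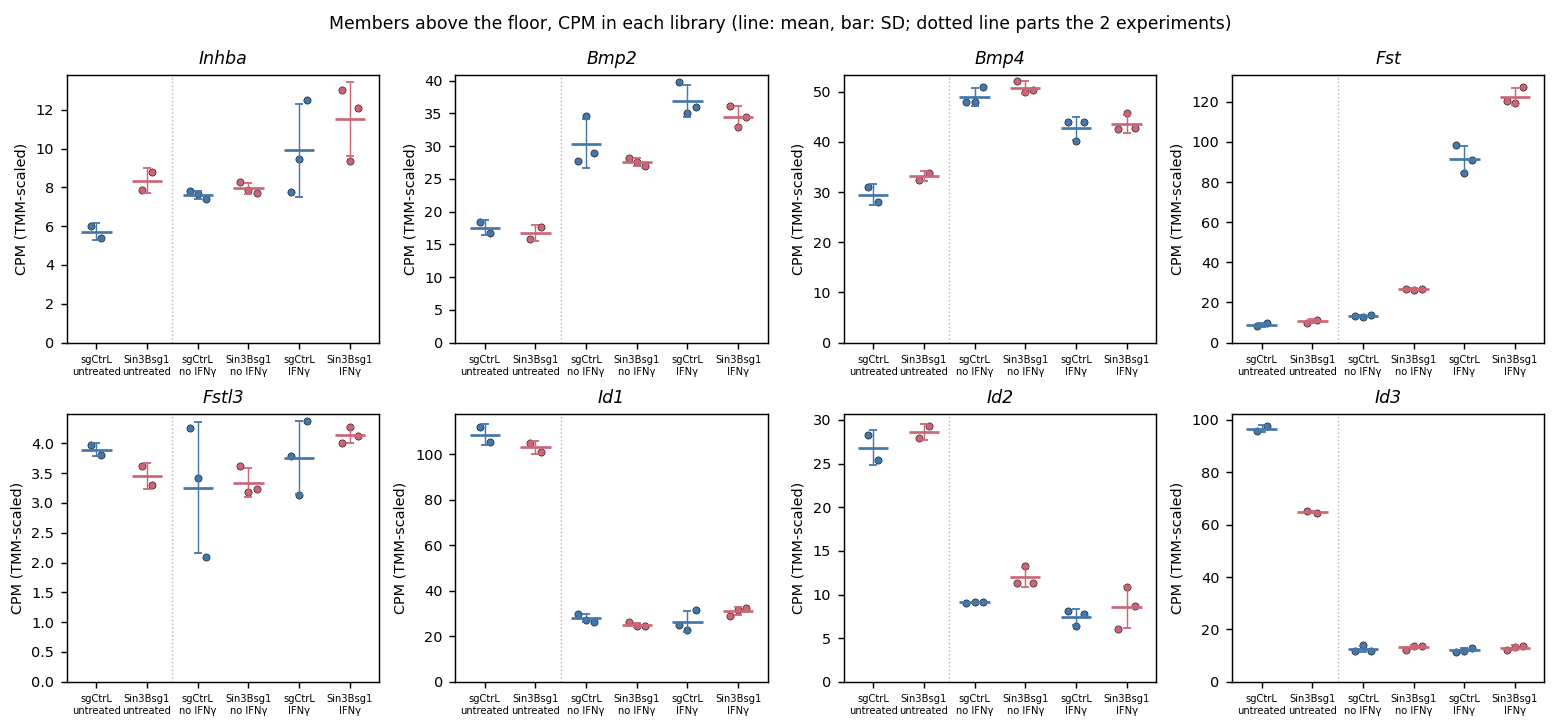
CPM of 8 members in each of 16 libraries, on linear axes from 0; points are libraries, lines group means and bars SD (n = 2 in the untreated experiment, n = 3 in the other). Fst climbs from 13.3 CPM in sgCtrL without IFNγ to 122.6 CPM in Sin3Bsg1 with IFNγ, and Id1 and Id3 are high only in the 4 untreated libraries, to the left of the dotted line, which were normalized apart from the others.

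Among the activin ligands, Inhba encodes the βA subunit of activin A and Inhbb the βB subunit of activin B. Inhbb had 0 counts in all 16 libraries, which allows up to 3 counts, or 0.166 CPM in the shallowest library. Inhba stood at 6.02 and 5.41 CPM in untreated sgCtrL and at 7.88 and 8.81 CPM in untreated Sin3Bsg1, a log2 difference of 0.55 ± 0.13. The untreated groups did not overlap. Without IFNγ in the other experiment Inhba was at 7.82, 7.64 and 7.38 CPM in sgCtrL and at 8.26, 7.88 and 7.70 CPM in Sin3Bsg1, a difference of 0.06 ± 0.16. Those groups overlapped, and so did the genotypes with IFNγ, at 7.76, 9.48 and 12.5 CPM in sgCtrL and 13.0, 9.37 and 12.1 CPM in Sin3Bsg1 (0.21 ± 0.15, and 0.09 without the library that stood apart). The IFNγ difference of Inhba was 0.53 ± 0.15 in Sin3Bsg1, with no overlap, and 0.38 ± 0.16 in sgCtrL, where the library that stood apart was the lowest of those with IFNγ. Without that library the sgCtrL difference was 0.51.

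Bmp2 and Bmp4 encode BMP ligands. Bmp4 was the higher of this pair per length in every group, with a ratio of Bmp4 to Bmp2 in TPM (read density per gene length, scaled to the library) of 2.80 ± 0.37 (SD, n = 3) in sgCtrL without IFNγ and 3.18 ± 0.062 in Sin3Bsg1 without IFNγ. With IFNγ the ratio was 2.0 ± 0.097 in sgCtrL and 2.19 ± 0.18 in Sin3Bsg1. The libraries with and without IFNγ did not overlap in this ratio in either genotype.

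The lower ratio came with opposite movements of its parts. Bmp2 was at 27.7, 34.6 and 28.9 CPM in sgCtrL without IFNγ and at 39.7, 35.0 and 36.0 CPM with it, a log2 difference of 0.27 ± 0.079 (0.21 without the library that stood apart). In Sin3Bsg1 it went from 28.1, 27.6 and 26.9 CPM to 36.1, 33.0 and 34.4 CPM (0.32 ± 0.078). Every library with IFNγ was above every library without it in the same genotype. Bmp4 was at 47.9, 47.9 and 51.0 CPM in sgCtrL without IFNγ and at 44.1, 40.1 and 44.0 CPM with it, a log2 difference of -0.20 ± 0.056 (-0.23 without that library). In Sin3Bsg1 the values were 52.2, 49.9 and 50.4 CPM without and 42.5, 45.7 and 42.7 CPM with IFNγ (-0.22 ± 0.055). These groups did not overlap either, and here the libraries with IFNγ were the lower ones. The genotypes overlapped for both genes in the IFNγ experiment, with differences from -0.15 for Bmp2 without IFNγ to 0.06 for Bmp4 without IFNγ. In untreated cells Bmp2 was at 18.4 and 16.7 CPM in sgCtrL and at 15.9 and 17.6 CPM in Sin3Bsg1, and Bmp4 was at 31.0 and 28.0 CPM in sgCtrL and at 32.4 and 33.9 CPM in Sin3Bsg1. Bmp7, another BMP ligand, had 0 to 3 counts in the untreated libraries and 0 in the 12 others, so neither it nor Inhbb entered a fit.

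Of the antagonists chosen, Fst, which encodes follistatin, was the one that varied. Without IFNγ, Fst was at 13.4, 12.7 and 13.7 CPM in sgCtrL and at 26.9, 26.1 and 26.8 CPM in Sin3Bsg1. That is a log2 difference of 1.01 ± 0.069, or 2.01-fold, and the Sin3Bsg1 libraries were all higher. Of the 14913 genes tested, 2.70% had a log2 fold change at least this high. That rank is a description, since Fst was chosen with earlier results known. With IFNγ, Fst was at 98.3, 84.4 and 91.1 CPM in sgCtrL and at 120.5, 119.6 and 127.6 CPM in Sin3Bsg1 (0.43 ± 0.055). The genotypes again did not overlap, and without the library that stood apart, which was the highest of its group, the difference was 0.50.

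The IFNγ difference of Fst was 2.78 ± 0.066 on the log2 scale in sgCtrL, or 6.88-fold, and 2.20 ± 0.059 in Sin3Bsg1, or 4.605-fold. Without the library that stood apart it was 2.72 in sgCtrL. In CPM the mean went up by 78.0 ± 4.04 (SE, n = 3) in sgCtrL and by 96.0 ± 2.54 in Sin3Bsg1, so the ratio was the smaller one in Sin3Bsg1 while the absolute gain was the larger one. The difference of the 2 log2 changes was -0.58 ± 0.088, and -0.52 without that library. In the untreated experiment Fst was at 8.20 and 9.53 CPM in sgCtrL and at 9.84 and 11.4 CPM in Sin3Bsg1, a log2 difference of 0.26 ± 0.12. These groups did not overlap, but the highest sgCtrL library and the lowest Sin3Bsg1 library were close.

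Fst and Inhba were also compared within each library, per length. The ratio of Fst to Inhba in TPM was 1.41, 1.38 and 1.53 in sgCtrL without IFNγ and 2.69, 2.73 and 2.88 in Sin3Bsg1 without IFNγ. With IFNγ it was 10.5, 7.35 and 6.03 in sgCtrL and 7.64, 10.6 and 8.70 in Sin3Bsg1. The genotypes were apart without IFNγ and overlapped with it, where the spread of Inhba was widest. In untreated cells the ratio was 1.13 and 1.46 in sgCtrL and 1.03 and 1.07 in Sin3Bsg1, the opposite order, and Inhba was the higher in Sin3Bsg1 there.

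**Figure D2:**
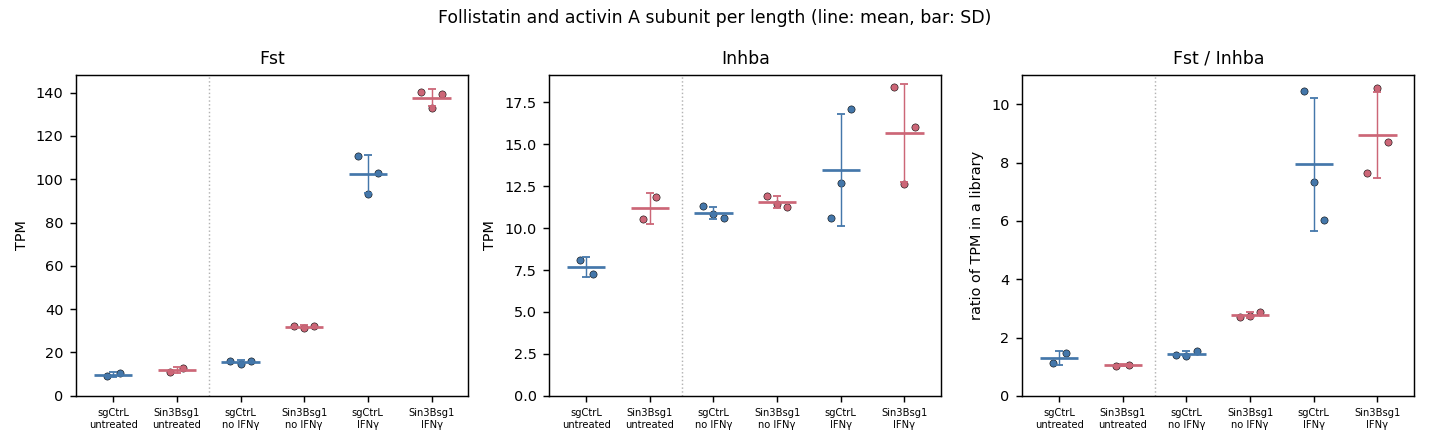
TPM of Fst (left) and Inhba (middle) and their ratio within a library (right), by group; points are libraries, lines group means and bars SD. Without IFNγ the ratio is 1.44 in sgCtrL and 2.77 in Sin3Bsg1, and with IFNγ it is 7.95 and 8.96 with overlapping libraries.

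Fstl3, a follistatin-like antagonist of activin and myostatin, was low and varied little. Its group means lay between 3.26 and 4.14 CPM in all 6 groups. The sgCtrL libraries without IFNγ alone spanned 2.09 to 4.26 CPM, from 39 to 82 counts, and the log2 differences ran from -0.17 ± 0.18 between untreated genotypes to 0.31 ± 0.21 with IFNγ in Sin3Bsg1.

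Id1, Id2 and Id3 were measured as target genes. In the untreated experiment Id1 was at 111.8 and 105.3 CPM in sgCtrL and at 104.9 and 101.0 CPM in Sin3Bsg1 (-0.08 ± 0.038), and Id2 was at 28.3 and 25.4 CPM in sgCtrL and at 27.9 and 29.3 CPM in Sin3Bsg1 (0.09 ± 0.072). Id3 differed from both: it was at 95.8 and 97.6 CPM in sgCtrL and at 65.1 and 64.5 CPM in Sin3Bsg1, a log2 difference of -0.58 ± 0.038. Both Sin3Bsg1 libraries were lower, and 94.0% of the 14589 genes tested had a log2 fold change at least as high. The rank of Id3 is likewise a description of a gene chosen with earlier results known.

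The same 3 genes were low in all 12 libraries of the IFNγ experiment. Id3 was at 11.9, 14.0 and 11.9 CPM in sgCtrL without IFNγ and at 12.3, 13.6 and 13.8 CPM in Sin3Bsg1 without IFNγ, with differences between genotypes of 0.06 ± 0.094 without and 0.12 ± 0.093 with IFNγ (0.10 without the library that stood apart). The genotypes overlapped in both cases. The untreated difference of Id3 thus stood at -0.58 and that of the other experiment at 0.06, side by side and without a test, since the tables were fitted apart. Id1 was at 26.2, 24.6 and 24.5 CPM in Sin3Bsg1 without IFNγ and at 28.9, 31.7 and 32.6 CPM with it (0.31 ± 0.095). In sgCtrL it was at 29.8, 27.3 and 26.5 CPM without and at 25.2, 22.7 and 31.4 CPM with IFNγ (-0.08 ± 0.097, and -0.06 without the library that stood apart). The groups with and without IFNγ were apart in Sin3Bsg1 and overlapped in sgCtrL, and the difference of the 2 log2 changes was 0.39 ± 0.14 (0.36 without that library). Id2 was at 9.06, 9.10 and 9.14 CPM in sgCtrL without IFNγ and at 11.4, 13.3 and 11.3 CPM in Sin3Bsg1 without IFNγ (0.40 ± 0.16). With IFNγ it was at 8.15, 6.38 and 7.75 CPM in sgCtrL and at 6.10, 10.9 and 8.68 CPM in Sin3Bsg1. Id2 was thus the lower with IFNγ in both genotypes, by -0.30 ± 0.17 in sgCtrL and -0.49 ± 0.16 in Sin3Bsg1, with no overlap within a genotype, and by -0.38 in sgCtrL without the library that stood apart.

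**Figure D3:**
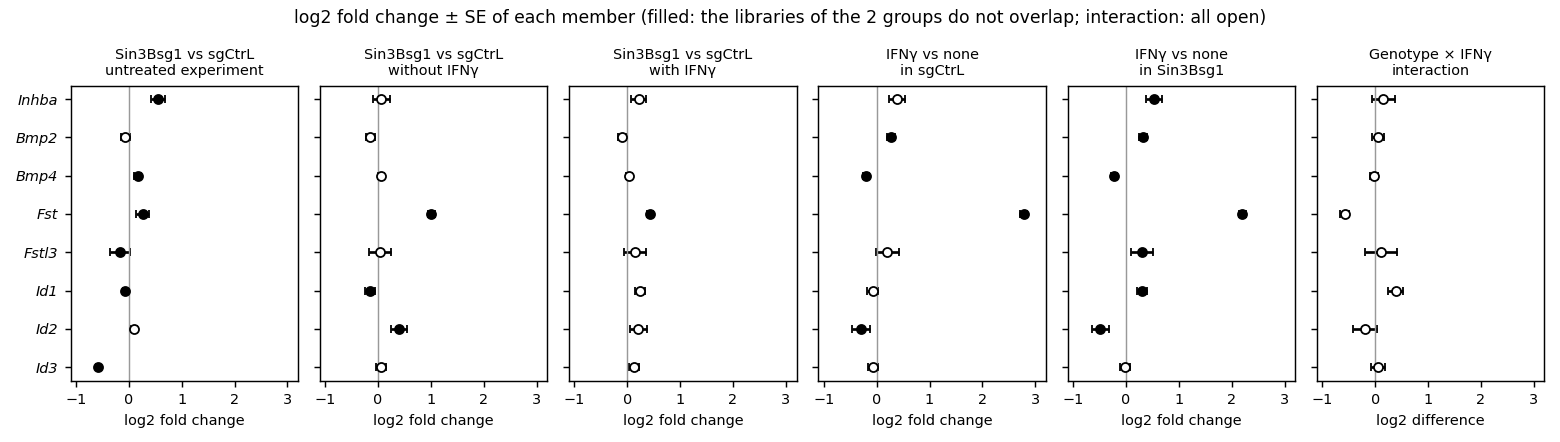
log2 fold change ± SE of 8 members in 5 comparisons, and the genotype by IFNγ interaction as a difference of log2 fold changes; filled points mark groups whose libraries do not overlap. Fst lies at 2.78 and 2.20 with IFNγ, far from every other member, and Id3 at -0.58 in untreated cells alone.

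Counts of members past the edgeR threshold (adjusted p under 0.05 over all genes tested) stand beside the share of all genes, and nothing is read from them because the genes were chosen with these comparisons known. In untreated cells 2 of 8 members passed, Inhba and Id3, against 31.2% of all genes; 6 of 8 did not overlap between groups, against 63.3%. Without IFNγ 1 of 8 passed between genotypes, Fst, against 17.2%, and 3 did not overlap, against 39.2%. The directional shares of all genes there were 7.89% higher and 9.32% lower. With IFNγ Fst alone passed again, against 16.5% (8.62% higher and 7.89% lower), and it was the 1 member that did not overlap, against 30.4%. For IFNγ in sgCtrL 3 of 8 passed, Fst, Bmp2 and Bmp4, against 30.2%, and 4 did not overlap, against 41.5%. In Sin3Bsg1 6 of 8 passed, all but Fstl3 and Id3, against 28.4%, and 7 did not overlap, against 45.4%. The interaction passed for Fst, as it did for 0.114% of all genes (0.0805% with a positive and 0.0335% with a negative difference). The median log2 fold change of the 8 members was 0.01 in untreated cells, 0.06 and 0.18 between genotypes without and with IFNγ, and 0.06 and 0.31 for IFNγ in sgCtrL and Sin3Bsg1, and the median of all genes was between -0.01 and 0.01 in each.

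Several of these calls were lost in alternatives, mainly those with 1 library left out. A lost call did not always come with a smaller difference: for Id2 and the Fst interaction some were larger in size than reported. The IFNγ call of Bmp2 in sgCtrL was lost without sgCtrL replicate 1 or 3 without IFNγ (0.21 and 0.24), without the library that stood apart (0.21) and in a fit of the 6 libraries alone (0.27), and that of Bmp4 without sgCtrL replicate 3 without IFNγ (-0.17) or replicate 2 with it (-0.16). In Sin3Bsg1 the IFNγ call of Inhba was lost without replicate 1 or 3 with IFNγ (0.40 and 0.47). That of Id1 was lost without replicate 2 or 3 of either Sin3Bsg1 group, at 0.25 to 0.30. The call of Id2 was lost without Sin3Bsg1 replicate 1 or 2 without IFNγ (-0.52 and -0.40) or replicate 1 or 3 with it (-0.32 and -0.52). In the other direction, 1 library left out brought a call to Inhba with IFNγ in sgCtrL (0.51 without the library that stood apart, and 0.39 with no low-count filter) and to Id1 between genotypes with IFNγ (0.38 without sgCtrL replicate 3). The same held for Id2 between genotypes without IFNγ (0.42 without Sin3Bsg1 replicate 1 or 2 with IFNγ), for untreated Fst (0.37 without Sin3Bsg1 replicate 1) and for untreated Bmp4 (0.20 without Sin3Bsg1 replicate 1 and 0.24 without sgCtrL replicate 1). The interaction call of Fst was lost in 8 of 17 alternatives, each without 1 library (-0.60 to -0.55). The genotype calls of Fst in the IFNγ experiment, its IFNγ calls in both genotypes and the untreated calls of Inhba and Id3 were kept under every alternative run. These refits used the same libraries in which the genes had been chosen, so a kept call adds no independent support.

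Control cells of the 2 experiments differed in Id levels by more than most genes did. The tables were normalized separately and come from separate experiments, so the ratios below are a description and were not tested. In sgCtrL the level in the untreated experiment was 3.90 times that without IFNγ in the other experiment for Id1, 2.95 times for Id2 and 7.68 times for Id3. On the log2 scale, with 0.5 CPM added, these were 1.94, 1.51 and 2.89, and of the 13848 genes with a test in each experiment 0.953%, 1.93% and 0.332% were at least as high. The median of all genes was 0.07, and the median absolute value was 0.27. In Sin3Bsg1 the log2 ratios were 2.02, 1.22 and 2.25. Per length, the summed TPM of the 3 Id genes was 404.9 ± 11.1 (SD, n = 2) in untreated sgCtrL and 347.2 ± 2.26 in untreated Sin3Bsg1, against group means of 83.0 to 98.7 in the 4 groups of the IFNγ experiment.

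In sgCtrL the ligands and Fst stood the other way around. The log2 ratio in sgCtrL was -0.78 for Bmp2, -0.72 for Bmp4, -0.56 for Fst and -0.39 for Inhba, so all 4 were lower in the untreated experiment, whereas Fstl3 was at 0.22. In Sin3Bsg1 the values were -0.70 for Bmp2, -0.61 for Bmp4 and -1.28 for Fst, and Inhba, at 0.07, lay near the median of all genes (0.08). Of 6 other BMP target genes with a test in each experiment, all named here after their values were seen, Smad9 (1.80), Smad6 (1.70) and Atoh8 (1.65) were close to the Id genes, Smad7 was at 1.05, Msx1 at 0.17 and Bambi at -0.10, with a median of 1.35. Genes of the other lists reached similar values in sgCtrL, among them Lefty1 (2.08), Chrd (2.08), Acvr2b (1.53), Ccn2 (1.17) and Grem1 (1.16). Smad6 and Smad7 are inhibitory Smads that BMP signaling switches on. The sources used here do not say what else differed between the experiments, and the cells, their culture and their libraries cannot be told apart.

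**Figure D4:**
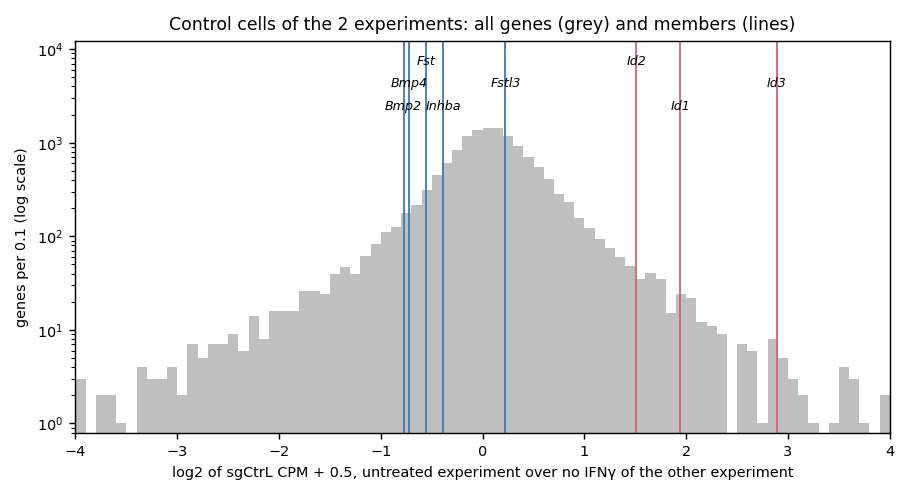
Distribution over 13848 genes of the log2 ratio of sgCtrL CPM (0.5 added) in the untreated experiment over sgCtrL CPM without IFNγ in the other experiment; the vertical axis is logarithmic. Red lines mark Id2, Id1 and Id3 at 1.51, 1.94 and 2.89, and blue lines the other members between -0.78 and 0.22.

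Promoter sequence is shown for Id2 and Id3, which were both higher in the untreated experiment. Between genotypes in untreated cells Id3 was lower in Sin3Bsg1, whereas the Id2 libraries overlapped. Of the 10 genes, 6 had an entry in the RefSeq promoter table (GRCm38.p6), and the 250 bases before the start are printed for Id2 (chr12:25096093-25096342, minus strand) and Id3 (chr4:136143572-136143821, plus strand), 5′ to 3′. Capitals mark GGCGCC, a palindrome bound by BMP Smads, and the Smad-binding element GTCT or its complement AGAC. The 2 motifs share no bases.
Id2: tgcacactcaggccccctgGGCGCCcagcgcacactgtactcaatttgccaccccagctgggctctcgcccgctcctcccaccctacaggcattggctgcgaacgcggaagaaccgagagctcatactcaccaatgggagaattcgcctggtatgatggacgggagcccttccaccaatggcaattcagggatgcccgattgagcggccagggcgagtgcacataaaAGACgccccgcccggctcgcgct
Id3: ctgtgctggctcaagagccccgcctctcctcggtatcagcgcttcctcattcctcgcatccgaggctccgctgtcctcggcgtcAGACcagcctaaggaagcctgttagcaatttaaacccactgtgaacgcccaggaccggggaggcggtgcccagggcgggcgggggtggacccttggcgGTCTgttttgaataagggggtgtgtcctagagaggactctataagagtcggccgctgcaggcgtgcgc
Id2 held 1 GGCGCC and 1 GTCT or AGAC, and Id3 held 0 and 2. Over the same 250 bases of 32851 promoters, both strands read, 9.59% held GGCGCC and 82.9% held GTCT or AGAC. Fstl3, Inhba, Inhbb and Bmp4 held no GGCGCC in this window, and 3, 1, 2 and 1 copies of GTCT or AGAC. Sequence outside the 250 bases was not read, and a link of these motifs to the expression values was not tested.

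The rest of the pathway was read from 8 lists with 94 genes in all, of which 54 were tested in untreated cells and 51 in the IFNγ experiment. These lists, like the marker lists below, were chosen with earlier results of these data known. Their shares and adjusted p-values are therefore a description and not independent support. In untreated cells 22 were lower and 6 higher in Sin3Bsg1 (51.9% called, against 31.2% of all genes, 16.0% lower and 15.1% higher), with a median log2 fold change of -0.13 against 0.00 over all genes. Without IFNγ 9 were higher and 8 lower between genotypes (33.3% against 17.2%), and with IFNγ 8 were higher and 6 lower (27.5% against 16.5%). With IFNγ 17 fell and 9 rose in sgCtrL, against 14.5% and 15.7% of all genes, and 18 fell and 8 rose in Sin3Bsg1, against 12.3% and 16.1%. In the interaction 0 of 51 passed in edgeR and 0 in DESeq2, and 5 had an unadjusted p under 0.05.

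**Figure D5:**
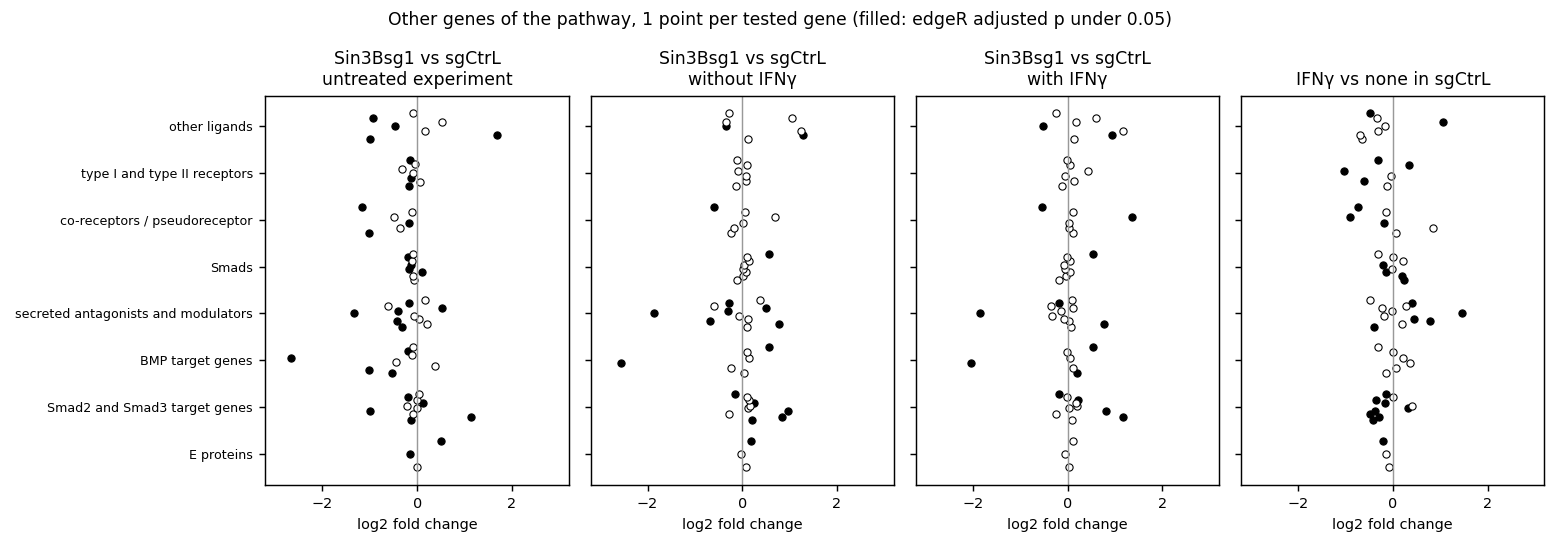
log2 fold change of each tested gene of 8 pathway lists in 4 comparisons; 1 point is 1 gene, filled where edgeR's adjusted p over all genes was under 0.05, and a gene on 2 lists is drawn in both. Fstl1 is the low filled point among the secreted antagonists and modulators at -1.33, -1.86 and -1.85 between genotypes, and lies at 1.47 with IFNγ in sgCtrL.

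Among the secreted antagonists and modulators other than Fst and Fstl3, 5 of 11 were lower and 1 higher in untreated Sin3Bsg1, beside 16.0% and 15.1% of all genes. The list is mixed, so these counts are not counts of antagonists alone. Fstl1, a secreted protein with a follistatin-like domain, fell from 21.1 ± 2.05 to 8.43 ± 0.95 CPM (SD, n = 2; log2 -1.33 ± 0.11, edgeR adjusted p = 7.21e-08). It fell from 64.7 ± 0.32 to 17.8 ± 2.18 CPM without IFNγ (-1.86 ± 0.067, edgeR adjusted p = 1.04e-10) and was also lower with IFNγ (-1.85 ± 0.061, edgeR adjusted p = 3.63e-11). Fst and Fstl1 thus lay on opposite sides between genotypes, at 1.01 and -1.86 without IFNγ, and both were higher with IFNγ, Fstl1 by 1.47 ± 0.060 in sgCtrL (edgeR adjusted p = 1.53e-11) and by 1.48 ± 0.068 in Sin3Bsg1 (edgeR adjusted p = 5.97e-11). Chrd, which encodes the BMP antagonist chordin, was lower in Sin3Bsg1 without IFNγ (-0.68 ± 0.14, edgeR adjusted p = 0.00227) and rose with IFNγ by 0.78 ± 0.12 in sgCtrL (edgeR adjusted p = 1.60e-04) and by 1.49 ± 0.13 in Sin3Bsg1 (edgeR adjusted p = 1.81e-07). Chrd was also lower in untreated Sin3Bsg1, a value named after it was seen (-0.42 ± 0.081, edgeR adjusted p = 7.12e-04), and its genotypes overlapped with IFNγ. Nbl1, a DAN-family BMP antagonist, was higher in untreated Sin3Bsg1 (0.53 ± 0.087, edgeR adjusted p = 1.89e-04) and fell with IFNγ in Sin3Bsg1 (-0.60 ± 0.12, edgeR adjusted p = 8.95e-04). Nbl1 was also higher in Sin3Bsg1 without IFNγ, a value named after it was seen (0.50 ± 0.12, edgeR adjusted p = 0.00691), and its genotypes overlapped with IFNγ.

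Of the other ligands, 7 of 24 were tested in each table. Bmp6 was higher in untreated Sin3Bsg1 (1.68 ± 0.29, edgeR adjusted p = 3.02e-04), at 0.895 against 2.87 CPM. Bmp5 was higher in Sin3Bsg1 without IFNγ (1.28 ± 0.25, edgeR adjusted p = 0.00217), at 1.02 against 2.51 CPM, and lower in untreated Sin3Bsg1, a value named after it was seen (-1.0 ± 0.35, edgeR adjusted p = 0.0389). With IFNγ the genotype value of Bmp5 was 0.93 ± 0.28 (edgeR adjusted p = 0.0326), a call lost in 9 alternatives, 6 of which left out 1 library (0.84 to 1.04), among them the library that stood apart (0.86). Bmp5 fell with IFNγ in Sin3Bsg1 (-1.04 ± 0.24, edgeR adjusted p = 0.00429). Gdf6, a BMP-type ligand, rose with IFNγ by 1.07 ± 0.18 in sgCtrL (edgeR adjusted p = 2.31e-04, and 0.96 without the library that stood apart) and by 1.59 ± 0.17 in Sin3Bsg1 (edgeR adjusted p = 3.38e-06). Gdf11 was lower in Sin3Bsg1 with IFNγ (-0.51 ± 0.088, edgeR adjusted p = 7.16e-04, and -0.44 without that library). It was also lower in untreated Sin3Bsg1 (-0.47 ± 0.10, edgeR adjusted p = 0.00207) and without IFNγ (-0.35 ± 0.086, edgeR adjusted p = 0.00996), values named after they were seen.

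Of the receptors, 3 of 7 were lower in untreated Sin3Bsg1, beside 16.0% of all genes. In the IFNγ experiment 0 of 6 passed between genotypes in edgeR, without or with IFNγ, and 0 in DESeq2, and 2 had an unadjusted p under 0.05 in each. With IFNγ 1 of 6 rose and 3 fell in sgCtrL, beside 15.7% and 14.5% of all genes, and Acvr2b, a type II activin receptor, was one of those that fell (-1.04 ± 0.23, edgeR adjusted p = 0.00304, and -0.82 without the library that stood apart). Tgfbr3, a co-receptor for TGFβ and inhibin, was lower in Sin3Bsg1 in untreated cells (-1.16 ± 0.058, edgeR adjusted p = 2.88e-10), without IFNγ (-0.59 ± 0.061, edgeR adjusted p = 4.66e-06) and with it (-0.54 ± 0.064, edgeR adjusted p = 2.45e-05). With IFNγ it changed by -0.72 ± 0.061 in sgCtrL (edgeR adjusted p = 1.81e-07) and by -0.67 ± 0.064 in Sin3Bsg1 (edgeR adjusted p = 6.48e-07). Bambi, a pseudoreceptor that blocks BMP and activin receptors and is itself a BMP target, fell from 10.0 to 4.93 CPM in untreated Sin3Bsg1 (-1.02 ± 0.13, edgeR adjusted p = 1.79e-05). In that comparison Id3 was at -0.58, Id1 at -0.08 and Id2 at 0.09. Rgma, a BMP co-receptor, was higher in Sin3Bsg1 with IFNγ (1.36 ± 0.28, edgeR adjusted p = 0.0034, and 1.71 without the library that stood apart) and lower with IFNγ in sgCtrL (-0.91 ± 0.30, edgeR adjusted p = 0.03). The latter call was lost without replicate 1 or 2 of sgCtrL without IFNγ (-0.90 and -0.83) or replicate 2 or 3 with it (-0.89 and -0.65), and in a fit of the 6 libraries alone (-0.91), and without the library that stood apart the value was -1.25.

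The BMP target genes beside the Id genes were read next to them. In untreated Sin3Bsg1 4 of 8 were lower and 4 did not pass in edgeR, beside 16.0% of all genes that were lower. Without IFNγ 1 of 6 was higher and 1 lower between genotypes (7.89% and 9.32% of all genes), and with IFNγ 2 were higher and 1 lower (8.62% and 7.89%). Msx1, named after its values were seen because it was the lower in all 3 genotype comparisons, was a rare transcript, with 15 to 28 counts in untreated sgCtrL and 1 to 6 in untreated Sin3Bsg1, and 9 to 18 against 2 to 3 counts without IFNγ. With IFNγ 0 of 6 passed in sgCtrL in edgeR and 0 in DESeq2, with 1 at an unadjusted p under 0.05, and 1 of 6 rose in Sin3Bsg1, Bambi (0.42 ± 0.10, edgeR adjusted p = 0.00474), also named after it was seen.

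Genes induced through Smad2 and Smad3, which carry the activin signal, fell with IFNγ more often than they rose: 7 of 10 fell and 1 rose in sgCtrL, and 6 fell and 1 rose in Sin3Bsg1, beside 14.5% and 12.3% of all genes that fell and 15.7% and 16.1% that rose. Fst was higher with IFNγ in both genotypes. Between genotypes Ccn2, which encodes a matricellular growth factor, was higher in Sin3Bsg1 in untreated cells (1.13 ± 0.039, edgeR adjusted p = 3.36e-12), without IFNγ (0.84 ± 0.090, edgeR adjusted p = 7.56e-06) and with it (1.16 ± 0.091, edgeR adjusted p = 2.62e-07, and 1.31 without the library that stood apart). Ltbp2, a matrix protein of the latent TGFβ binding family, had the same mean of 121.9 CPM in sgCtrL of both experiments, and, again named after it was seen, was at 61.5 CPM in untreated Sin3Bsg1 (-0.99 ± 0.037, edgeR adjusted p = 1.00e-11) and at 237.9 CPM in Sin3Bsg1 without IFNγ (0.96 ± 0.056, edgeR adjusted p = 1.00e-08). The difference between those experiments was not tested. Of the 3 E proteins, the partners of Id proteins, named after their values were seen, Tcf4 was higher (0.50) and Tcf3 lower (-0.16) in untreated Sin3Bsg1, and Tcf4 was higher without IFNγ (0.19). The edgeR adjusted p-values were 1.04e-07, 9.04e-04 and 0.0102.

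Markers of cell state moved with genotype in untreated cells, the comparison in which Id3 and Inhba stood apart. Epithelial markers were higher in Sin3Bsg1 for 9 of 9 tested genes, beside 15.1% of all genes. They summed to 4791 to 4816 CPM in sgCtrL and 6425 to 6475 CPM in Sin3Bsg1. Of 6 fibroblast markers tested 3 were lower (16.0% of all genes), Pdgfra (-1.78), Col1a1 (-1.62) and Pdgfrb (-1.14). The fibroblast markers summed to 118.2 to 119.2 CPM in sgCtrL and 36.7 to 39.6 CPM in Sin3Bsg1, with Lum and Fap at the floor. Without IFNγ in the other experiment, where Fst differed, the epithelial sums were 3216 to 3247 and 3455 to 3574 CPM and the fibroblast sums 272.7 to 280.8 and 253.9 to 264.8 CPM, with Dcn, Lum, Thy1 and Fap at the floor in both genotypes. There 4 of 9 epithelial markers were higher (7.89% of all genes), and of 5 fibroblast markers tested 2 were higher, Col1a1 (1.37) and Pdgfrb (0.19), and 1 lower, Pdgfra (-0.26), with a median log2 fold change of 0.44, opposite in sign to the change of the sum. With IFNγ 6 of 9 epithelial markers were higher (8.62% of all genes), and the epithelial sums were 3318 to 3864 CPM in sgCtrL and 4366 to 4600 CPM in Sin3Bsg1. Of 5 fibroblast markers tested with IFNγ 2 were higher, Col1a1 and Pdgfrb, and 1 lower, Pdgfra, beside 8.62% and 7.89% of all genes. Their sums overlapped, at 195.9 to 198.9 CPM in sgCtrL and 184.0 to 198.4 CPM in Sin3Bsg1. The part of these shifts in the values of the members was not tested. All libraries are of the KPC1199 tumor line. In bulk RNA, fewer cells in a state and less RNA per cell cannot be told apart.

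The genes whose log2 CPM followed each member most closely over the 12 libraries of the IFNγ experiment, among 10503 genes compared, are given by Pearson's r as a description. These libraries share the IFNγ and genotype groups. C1ra, a complement protease, followed Fst at 0.996. For the others r was 0.963 for Bmp2 with Terf1, 0.950 for Bmp4 with Arl4c, 0.933 for Inhba with Gm37158 and 0.911 for Id2 with Bok. It was lowest for Id1 with Mrpl23-ps1 (0.847) and Id3 with Gmpr2 (0.846). Mrpl23-ps1 is a pseudogene and may share reads with its parent gene.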

How the data were processed

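RNA-seq of 16 libraries was analysed from 2 tables of estimated counts per gene, which the authors deposited without normalization. The study's methods name HISAT2, mouse mm9 and featureCounts on uniquely mapped reads, whereas the submitters' processing notes list fastp, HISAT2, StringTie, DESeq2 and mm39, so the build of the counts is unsure. Versions, annotation and strand setting are not given in the sources used here, and reads of a gene and an antisense partner cannot be told apart. Of the 56980 features of the IFNγ table, 56236 carry an Ensembl gene of GENCODE vM39, from which GRCm39 coordinates were taken. The control columns, which name lacZ, were assigned to sgCtrL because each table holds only 1 guide besides Sin3Bsg1. Mean columns were not used. From the untreated experiment, 324 assembled loci without an Ensembl gene (0.615 to 0.677% of counts) were left out.

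Counts were rounded to whole numbers and tested with edgeR 4.0.16 in R (TMM, filterByExpr, quasi-likelihood, two-sided), with Benjamini-Hochberg adjustment over 14589 and 14913 genes and a threshold of 0.05. Each table was fitted apart, the IFNγ table with a mean per group over 12 libraries. SE is the absolute log2 fold change over the square root of F. TPM used the deposited gene lengths. DESeq2, DESeq2 size factors, other filters, a replicate block, single libraries left out and fits of 6 libraries were alternatives. A floor of 3 counts reflects counting error alone. The code was tested on simulated data. Members and lists were chosen with earlier results of these data known. Pathway genes are named by rule: per comparison, the 3 largest rises and 3 largest falls past the threshold whose mean reached 1 CPM and whose groups did not overlap.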

Additional observations from a re-analysis of the deposited data

Results flagged for a closer look

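The IFNγ response of Fst differed between genotypes in the interaction term of the edgeR fit, by -0.58 ± 0.088 on the log2 scale, which is why it is listed here. The value was chosen with this result known and is a description. It kept its sign in all 17 alternatives, from -0.65 to -0.52, and stayed past the threshold in 9 of them. The 8 that lost the call each left out 1 library: any of the 6 libraries without IFNγ (-0.60 to -0.55), Sin3Bsg1 replicate 2 with IFNγ (-0.58) or sgCtrL replicate 3 with IFNγ (-0.58). Without the library that stood apart it was -0.52 and kept the call. In CPM the gain was the larger one in Sin3Bsg1, at 96.0 against 78.0 CPM.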

How the results depend on the processing

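The numbers of called genes stayed within 1.5 times of the reported ones under most settings. The exceptions were the genotype comparisons fitted on only the 6 libraries compared, with 3995 genes without IFNγ (2567 reported) and 1500 with IFNγ (2463 reported), and the interaction, with 115 genes without a low-count filter and 32 with DESeq2, against 17 reported. Leaving out 1 library gave 1 to 33 genes for the interaction, 33 without sgCtrL replicate 1 with IFNγ. In the same runs the counts were 3653 to 4220 in untreated cells, 1864 to 3529 and 1784 to 2946 between genotypes without and with IFNγ, and 3546 to 4726 and 3347 to 5245 for IFNγ in sgCtrL and Sin3Bsg1. Where a group of the untreated experiment was left with 1 library, it was assumed to vary like the other. The causes were not tested. Signs turned for Irf1 between genotypes without IFNγ (-0.0049 to 0.0286 with 1 library left out, the lowest without Sin3Bsg1 replicate 2) and for the interaction of Sin3b (-0.0400 to 0.0535 with 1 library left out, with -0.0025 without sgCtrL replicate 2 without IFNγ). Signs also turned under at least 1 alternative for 12 of the 48 differences fitted for the members, of Bmp2, Bmp4, Fstl3, Id1, Id2 and Id3, 0 of which were past the threshold as reported and the largest of which was 0.21 in size.

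Whether the replicate numbers pair the samples is not stated, and the correlations do not settle it. Deviations of same-numbered libraries correlated at -0.07 to 0.19. The highest values were between the genotypes with IFNγ, at 0.191 for replicate 1 and 0.186 for replicate 2, and replicate 3 was at -0.019. The block therefore rests on the number alone. With the replicate block the counts were 4671, 2511, 2389, 4400, 4207 and 13, in the order untreated, genotype without and with IFNγ, IFNγ in sgCtrL and in Sin3Bsg1, and interaction. Not every sample correlated best with its own number. Depth limits Inhbb and Bmp7, which were at the floor.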
